A study of Homo sapiens with 4 samples.

Results

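Interleukin receptor subunits were followed in the human bladder carcinoma line T24 after knockdown of NSUN2. The 10 genes are IL1R1, IL1RAP, IL4R, IL6R, IL6ST, IL10RB, IL13RA1, IL17RA, IL17RC and IL20RB. All 10 were found by gene symbol among the 62893 genes of the count table, 1 Ensembl ID each, and all 10 passed the filter on low counts, as did 16889 genes in all. The family was chosen by measured values of these same libraries: it was seen to rise in siNSUN2 cells, with no stated threshold. Differences of the members between the groups are therefore given as a description, with no test. The label holds in part, since 7 members had higher mean levels in siNSUN2 cells and IL6ST, IL13RA1 and IL20RB did not.

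The series holds 4 poly(A) RNA-seq libraries, 2 from cells treated with control siRNA (siControl) and 2 from cells treated with siRNA against NSUN2 (siNSUN2). NSUN2 encodes an RNA methyltransferase that places 5-methylcytosine on tRNAs and other RNAs. The siRNAs' number, sequence, dose and time of harvest were not given in the sources used here. Nothing says whether replicates came from separate cultures, so p-values cover the spread between these libraries alone, and that spread may be technical. Only this 1 line was used, and its cells carried no other modification that the labels name.

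Interleukin receptors are assembled from chains that each bind little or signal little alone. A ligand-specific chain (IL1R1, IL4R, IL6R) captures the cytokine and is joined by a chain that several cytokines share (IL1RAP, IL6ST, IL10RB, IL17RA). The chains of the IL-1 and IL-17 receptors recruit the adaptors MYD88 and TRAF3IP2 and pass on to NF-kB, whereas the IL-4, IL-6 and IL-10 families act through JAK kinases and STAT factors. Epithelial cells, the urothelium among them, use these receptors to answer signals from immune cells.

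The promoter windows of 3 members are shown side by side: IL6R, which had the largest difference, IL4R, also higher in siNSUN2 cells, and IL6ST, the most abundant and slightly lower. Each runs 5′ to 3′ along the gene, from 250 bases before to 50 bases after the start in RefSeq (GRCh38.p14). Capitals mark matches to the NF-kB motif in IL4R and IL6ST and to the AP-1 motif TGANTCA in IL6R. IL6R lies at chr1:154405093-154405392, plus strand, IL4R at chr16:27313724-27314023, plus strand and IL6ST at chr5:55994914-55995213, minus strand.
IL6R: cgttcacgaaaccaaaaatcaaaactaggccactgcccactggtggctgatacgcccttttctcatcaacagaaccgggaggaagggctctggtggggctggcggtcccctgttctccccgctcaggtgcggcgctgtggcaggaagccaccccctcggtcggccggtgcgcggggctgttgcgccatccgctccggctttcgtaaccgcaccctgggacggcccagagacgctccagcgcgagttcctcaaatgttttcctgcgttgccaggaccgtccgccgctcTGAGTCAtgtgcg
IL4R: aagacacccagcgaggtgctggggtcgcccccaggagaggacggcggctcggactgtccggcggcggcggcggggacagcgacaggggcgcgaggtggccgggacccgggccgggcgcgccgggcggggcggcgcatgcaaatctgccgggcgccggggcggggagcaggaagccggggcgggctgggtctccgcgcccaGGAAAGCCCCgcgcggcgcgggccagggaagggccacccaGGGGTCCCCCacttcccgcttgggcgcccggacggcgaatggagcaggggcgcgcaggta
IL6ST: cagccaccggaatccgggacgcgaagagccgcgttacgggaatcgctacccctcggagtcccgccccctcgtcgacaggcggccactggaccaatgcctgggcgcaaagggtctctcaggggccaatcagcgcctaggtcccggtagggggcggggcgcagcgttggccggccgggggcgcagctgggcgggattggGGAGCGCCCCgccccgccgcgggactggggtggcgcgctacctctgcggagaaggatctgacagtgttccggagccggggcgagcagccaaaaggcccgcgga

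RefSeq windows were matched for 9 of the 10 members (12 windows, 4 of them of IL1R1). IL17RA was not matched. Both strands were searched, and overlapping matches were each counted. The NF-kB motif was found in the windows of IL4R and IL6ST, 2 of 12 windows beside 11.3% of all 35116 windows. The STAT motif TTCNNNGAA was found for IL1R1 and IL10RB (2 of 12, and 7.66% of all), and TGANTCA for IL6R alone (1 of 12, and 7.71% of all). The GC box GGGCGG was in 9 of 12 windows and in 45.0% of all, and in IL6ST the NF-kB match shares bases with a GC box. Median GC content was 65.3% in the member windows and 58.7% in all. Of the motifs searched, IL1RAP, IL13RA1, IL17RC and IL20RB had only GC boxes. A match is a run of letters and not a measured binding site.

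Before any difference, the levels in siControl cells show how unequal the receptor chains are. Read counts scaled to library size (CPM, the usual unit for a count table) were divided by the kilobases of annotated exon of each gene, so that genes of unlike length can be compared. IL6ST, which encodes the shared signal transducer gp130, stood at 53.7 and 53.1 CPM per kilobase in the 2 siControl libraries. It was 2.50 times as high as IL13RA1 (20.9 and 21.9), the chain that joins IL4R in cells outside the blood lineages. IL4R followed at 11.9 and 12.1, then IL10RB at 5.25 and 6.94, IL17RC at 2.88 and 3.01, and IL17RA at 1.90 and 1.95 CPM per kilobase. IL1RAP (1.59 and 1.5) and IL1R1 (1.57 and 1.33) came next, with IL1R1 the lower within each library but the ranges of the pair overlapping. IL6R stood at 0.824 and 0.747 and IL20RB at 0.371 and 0.492 CPM per kilobase. Apart from that pair, no neighbours in this order overlapped between the siControl libraries. In siNSUN2 cells the lower part of the order was different: IL6R, at 3.22 and 2.95, lay above IL1R1, IL1RAP and IL17RA, and IL17RC, at 6.75 and 6.21, came close to IL10RB at 7.21 and 6.89. This order rests on the length of all annotated exons of each gene. For IL1RAP that length was 11558 bases beside 5413 in its longest transcript, for IL6R 6453 beside 5914 and for IL1R1 7083 beside 5143. Divided by the longest transcript, IL6R lay below IL1R1 and IL1RAP in both siNSUN2 libraries, and IL1RAP lay above IL17RA in both siControl libraries. Comparisons between genes per kilobase thus depend on the length used.

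**Figure D1:**
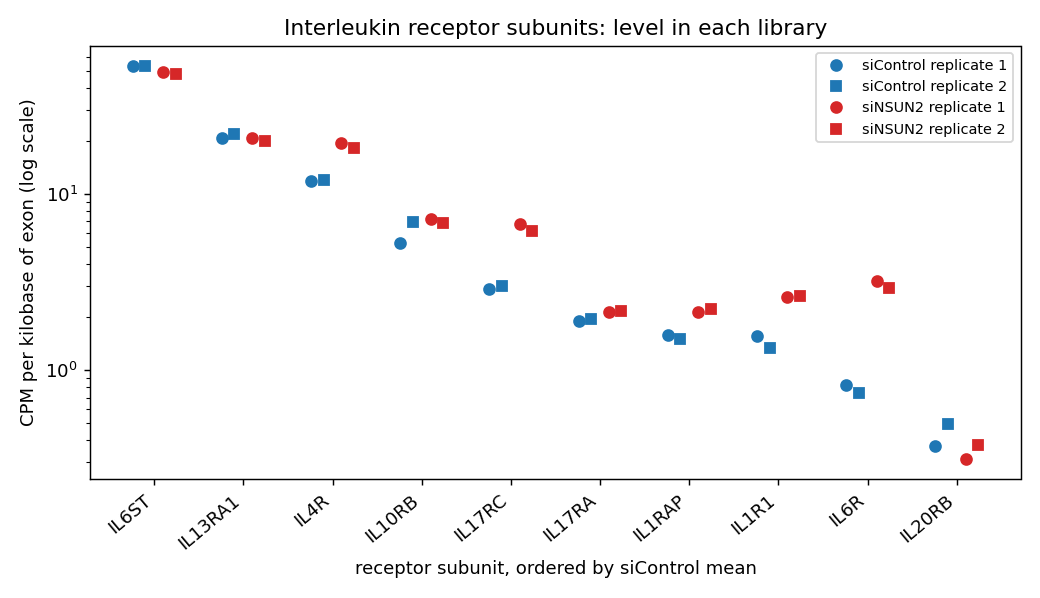
Level of each receptor subunit in each library, as CPM per kilobase of exon on a log axis, in the order of the siControl mean. Each point is 1 library (blue siControl, red siNSUN2), and IL6R moves from the ninth place in siControl cells to 3.22 and 2.95 in siNSUN2 cells, while IL6ST stays highest in all 4 libraries.

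By CPM, which is not divided by length, 6 members had both siNSUN2 libraries above both siControl libraries, 2 had both below, and 2 overlapped. Over all genes tested, both libraries were above in 38.6% and below in 36.0%. In the edgeR fit across all genes, 6 members were called higher and 1 lower at an adjusted p under 0.05, and 3 were not called. Of all genes tested, 27.1% were called higher and 25.5% lower. Because the members were chosen on this contrast, nothing is read from these counts. The median log2 fold change of the members was 0.35, beside 0.026 over all genes tested, with quartiles of −0.34 and 0.43.

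The largest difference was in the IL-6 receptor. IL6R, the chain that binds IL-6, stood at 5.32 and 4.82 CPM in siControl cells and at 20.8 and 19.0 CPM in siNSUN2 cells. The groups were far apart, with a fold of 3.96 (log2 fold change 1.98, SE 0.0884), and 98.7% of all genes tested had a lower log2 fold change. Its partner IL6ST, which carries the signal into the cell, was at 499 and 493 CPM in siControl cells and at 460 and 448 CPM in siNSUN2 cells. Both siNSUN2 libraries of IL6ST lay below both controls, by a small step (log2 fold change −0.13, SE 0.0383). IL6R transcripts per kilobase were thus 1.54% and 1.41% of those of IL6ST in siControl cells, and 6.52% and 6.13% in siNSUN2 cells. The shared chain stayed in large excess in every library, at a mean of 68.1 IL6ST per IL6R in siControl cells and 15.8 in siNSUN2 cells. IL6ST alone gave 66.5% and 65.2% of the summed CPM of the 10 members in siControl cells and 56.5% and 56.9% in siNSUN2 cells. The sum of the other 9 was 251 and 263 CPM against 354 and 340 CPM.

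The IL-17 receptor chains were unequal too. IL17RC, needed beside IL17RA for the response to IL-17A and IL-17F, stood at 13.1 and 13.7 CPM in siControl cells and at 30.6 and 28.2 CPM in siNSUN2 cells (log2 fold change 1.14, SE 0.0672). IL17RA, the chain that all IL-17 receptors share, was at 17.2 and 17.7 CPM and at 19.5 and 19.6 CPM (log2 fold change 0.16, SE 0.0611). Both had siNSUN2 libraries above the controls, but the step of IL17RA was small. Per kilobase, IL17RC was 1.52 and 1.54 times IL17RA in siControl cells and 3.13 and 2.87 times in siNSUN2 cells.

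Both chains of the IL-1 receptor were higher. IL1R1, which binds IL-1 and recruits MYD88 once joined by its partner, stood at 11.1 and 9.45 CPM in siControl cells and at 18.4 and 18.6 CPM in siNSUN2 cells (log2 fold change 0.86, SE 0.0880). IL1RAP, the partner shared by the receptors of IL-1, IL-33 and IL-36, was at 18.4 and 17.3 CPM and at 24.8 and 25.8 CPM (log2 fold change 0.50, SE 0.0633). The groups did not overlap for either gene. Per kilobase of all annotated exons, IL1R1 was 0.984 and 0.891 times IL1RAP in siControl cells and 1.21 and 1.18 times in siNSUN2 cells. By the longest transcript (5143 bases for IL1R1, 5413 for IL1RAP) IL1R1 lay below IL1RAP in every library. The ratio was higher in siNSUN2 cells, and the choice of length, which scales it alike in every library, cannot change that direction.

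The chains of the receptor for IL-4 and IL-13 differed in their ratio between the groups, by much less once GC content and length were corrected for. IL4R stood at 70.2 and 71.4 CPM in siControl cells and at 115 and 109 CPM in siNSUN2 cells (log2 fold change 0.66, SE 0.0451). IL13RA1 was at 91.2 and 95.5 CPM and at 91.0 and 87.6 CPM (log2 fold change −0.06, SE 0.0446), and its higher siNSUN2 value was just under its lower siControl value. Per kilobase, IL4R was 0.571 and 0.555 times IL13RA1 in siControl cells and 0.939 and 0.919 times in siNSUN2 cells. With offsets on GC content and exon length, described below, the log2 fold changes were 0.25 for IL4R and 0.10 for IL13RA1. Most of the shift in their ratio was thus not kept. By the longest transcript (3685 bases for IL4R, 4036 for IL13RA1) IL4R lay below IL13RA1 in siControl cells and above it in siNSUN2 cells.

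The class II chains gave the least certain values. IL10RB, the shared second chain for IL-10, IL-22 and the lambda interferons, stood at 23.9 and 31.6 CPM in siControl cells and at 32.8 and 31.3 CPM in siNSUN2 cells (log2 fold change 0.20, SE 0.163). Its groups overlapped, and its siControl libraries differed 1.32-fold, so that the log2 fold change was −0.04 without siControl replicate 1 and 0.41 without siControl replicate 2. A read-through gene of the same strand, AP000295.1, shares 1732 bases of exon with IL10RB, and itself had 11 to 84 counts. Its part in the values of IL10RB was not tested. IL20RB, a chain of the receptors for IL-20 and IL-24, rested on 39, 259, 71 and 32 counts in siControl replicates 1 and 2 and siNSUN2 replicates 1 and 2. Its values of 0.918 and 1.22 CPM and of 0.773 and 0.935 CPM overlapped (log2 fold change −0.35, SE 0.298), and no difference was detectable at this depth.

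**Figure D2:**
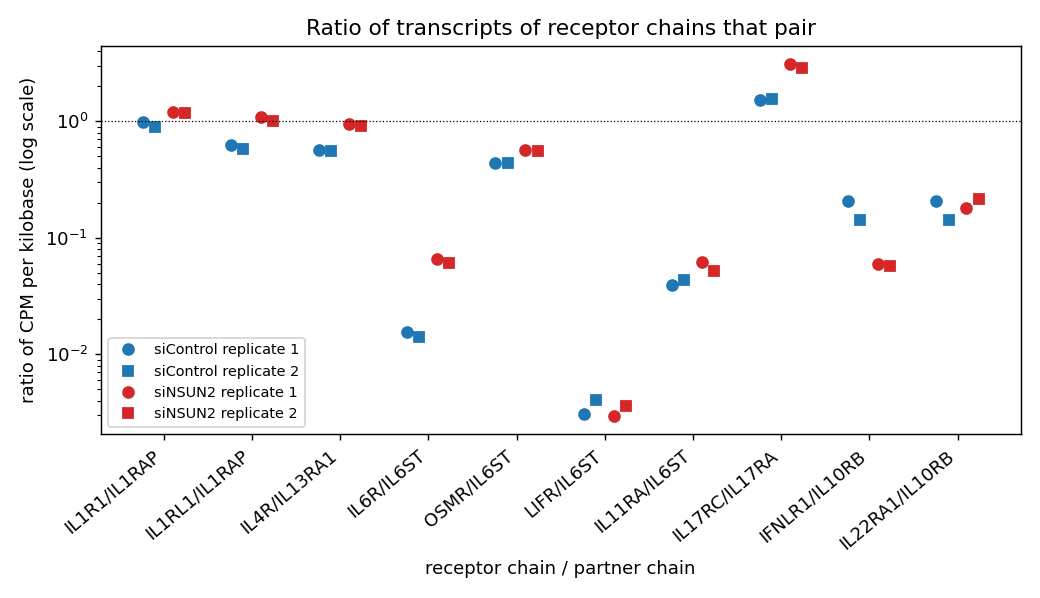
Ratio of the CPM per kilobase of paired receptor chains in each library, on a log axis, with a dotted line at equal levels. IL6R over IL6ST moves from 0.0154 and 0.0141 to 0.0652 and 0.0613, IL4R over IL13RA1 comes near the line at 0.939 and 0.919, and IFNLR1 over IL10RB goes from 0.209 and 0.142 to 0.0592 and 0.0577. The ratios are without offsets on GC content and length, and their place against the line depends on the length used for each gene.

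Correcting for GC content and exon length changed several of these values. The members' longest transcripts ran from 36.6% GC (IL6ST) to 63.5% (IL17RC). With offsets that remove trends on GC content and exon length from each library, the log2 fold change of IL17RC went from 1.14 to 0.53 and that of IL4R (58.1% GC) from 0.66 to 0.25. The small values of IL17RA (55.0% GC), IL6ST and IL13RA1 (42.9% GC) turned, to −0.12, 0.09 and 0.10. IL6R (51.8% GC) was at 1.85, IL1R1 (44.2% GC) at 0.96 and IL1RAP (41.7% GC) at 0.61. The median of the 10 members was 0.34 with the offsets, beside −0.014 over 16286 genes. Under 16 alternative settings IL17RA lost its call in 10 and IL6ST in 3, while IL10RB was called higher in 4 and IL13RA1 lower in 1. Nothing is read from these calls either.

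**Figure D3:**
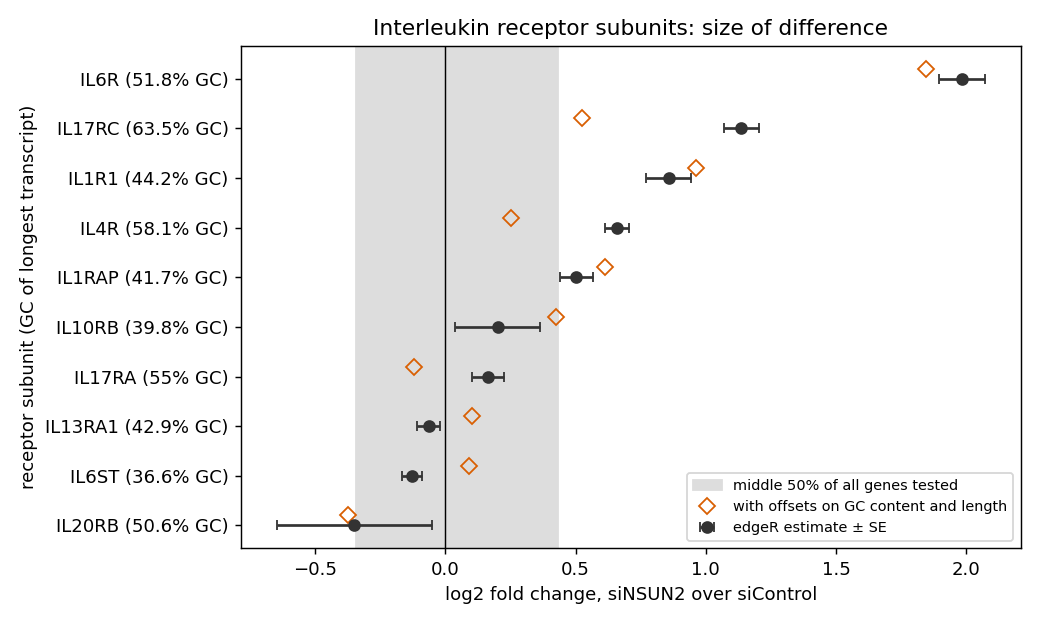
Log2 fold change of each receptor subunit, siNSUN2 over siControl, with its SE (black points), the value with offsets on GC content and length (open diamonds) and the interquartile range of all genes tested (grey, −0.34 to 0.43). IL6R, IL1R1, IL17RC and IL1RAP lie above the grey band by both values, whereas IL4R lies above it at 0.66 and within it at 0.25.

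The 3′ UTRs of 5 of the 10 members hold the word ACCCTA in their longest annotated form. They are printed because genes with this word tended to be lower in siNSUN2 cells: of 2657 tested genes with it, 22.9% rose and 44.7% fell (median log2 fold change −0.16), against 36.6% and 27.0% of 9881 genes without it (median 0.086). The word was in 21.2% of all tested genes with a 3′ UTR, and in 35.1% of those with at least 1500 bases. Each site is given with 12 bases on either side, the word in capitals, and the position of its first base in the UTR.
IL1RAP (base 2285): aaacgacaggccACCCTAactaaatatcca
IL6R (base 2188): tgtagattttagACCCTAttgctgcttgag
IL6ST (base 122): cgctatctagcaACCCTAacagtaagaaat
IL6ST (base 4599): agtcatccagtgACCCTAgctcttattgtg
IL10RB (base 1580): tcacatgttgaaACCCTAatccccaatgtg
IL17RA (base 2811): tggtccttgcttACCCTAaatgctattaat

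Members with and without the word were found at both ends of the differences. IL6R carries it and had the largest log2 fold change (1.98), IL1RAP carries it at 0.50, and IL6ST, at −0.13, has 2 copies. IL17RC, IL1R1 and IL4R, all higher, have none, nor do IL13RA1 and IL20RB, but the annotated 3′ UTR of IL17RC is only 28 bases long. The word was more frequent in long 3′ UTRs, and the parts of UTR length and GC content in the medians of genes with and without it were not tested. Those medians come from the same libraries, so they are no independent support for the word. The exons of the members had a median length of 6174 bases, beside 4247 over 16286 tested genes with a known length, and a median of 10.5 annotated transcripts beside 6. Gene-level counts do not tell membrane from soluble forms, which IL6R, IL6ST, IL4R and IL1RAP are known to have.

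The remaining interleukin receptor chains were taken from a list of 39, of which 21 could be tested, 13 had a mean of at least 1 CPM and 6 had 0 counts in every library. Of the 21, 9 rose, 3 fell and 9 were not called (edgeR, adjusted over all genes), with a median log2 fold change of 0.33. With GC and length offsets 6 rose and 3 fell, with a median of 0.14. Some of these chains complete the receptors of the members.

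The partners of IL6ST differed widely in level. OSMR, the oncostatin M receptor, was at 167 and 166 CPM in siControl cells and rose to 201 and 194 CPM (log2 fold change 0.24, SE 0.0398, edgeR adjusted p = 6.82e-04). IL11RA, the chain that binds IL-11, rose from 9.08 and 9.84 CPM to 13.0 and 10.7 CPM (log2 fold change 0.33, edgeR adjusted p = 0.0296), and was at 0.038 with the GC and length offsets (adjusted p = 0.815). It was not called without siControl replicate 1 (edgeR adjusted p = 0.202) or siNSUN2 replicate 1 (0.247). IL27RA, the IL-27 receptor chain, rose from 37.7 and 38.9 CPM to 44.2 and 43.8 CPM (log2 fold change 0.20, edgeR adjusted p = 0.00535), and was at −0.13 with the offsets (adjusted p = 0.0927) and at 0.11 without siControl replicate 1 (adjusted p = 0.198). LIFR, the chain for leukemia inhibitory factor, did not pass, with overlapping values of 1.95 and 2.55 CPM and of 1.72 and 2.04 CPM. IL31RA, which pairs with OSMR for IL-31, rose from 44.0 and 42.8 CPM to 54.0 and 53.6 CPM (log2 fold change 0.31, edgeR adjusted p = 2.59e-04). CNTFR had 0 counts in all 4 libraries.

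Among relatives of the IL-1 receptor, IL1RL1, the IL-33 receptor that uses IL1RAP, rose from 5.79 and 4.96 CPM to 13.5 and 13.0 CPM (log2 fold change 1.31, SE 0.105, edgeR adjusted p = 6.54e-06). Per kilobase it went from 0.632 and 0.577 times IL1RAP to 1.09 and 1.01 times, a ratio that also depends on the length used for IL1RAP. IL1R2, a decoy that binds IL-1 without signalling, fell from 0.471 and 0.691 CPM to 0.174 and 0.0584 CPM (log2 fold change −2.17, SE 0.542, edgeR adjusted p = 0.00792), and was not called without siControl replicate 2 (adjusted p = 0.116). SIGIRR, an inhibitory member of the family, rose from 4.75 and 4.43 CPM to 8.25 and 7.57 CPM (log2 fold change 0.79, edgeR adjusted p = 3.65e-04), but was at 0.018 with the GC and length offsets (adjusted p = 0.934). IL18R1 did not pass, at 4.57 and 4.14 CPM and 4.26 and 3.97 CPM, and IL1RL2, the IL-36 receptor chain, had 0 counts.

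The partners of IL10RB and IL20RB were scarce. IFNLR1, which joins IL10RB in the receptor for lambda interferons, fell from 5.41 and 4.85 CPM to 2.10 and 1.96 CPM (log2 fold change −1.33, SE 0.159, edgeR adjusted p = 8.72e-05). IL22RA1, the chain for IL-22, IL-20 and IL-24, narrowly missed the threshold, at 3.06 and 2.76 CPM and 3.66 and 4.15 CPM (log2 fold change 0.42, edgeR adjusted p = 0.0564). IL10RA, the ligand-binding chain for IL-10, had 0 counts in both siControl libraries, which allows up to 0.0709 and 0.0139 CPM (3 counts, counting error only), and 1 and 6 counts in siNSUN2 replicates 1 and 2. IL20RA had 4, 0, 3 and 0 counts in siControl replicates 1 and 2 and siNSUN2 replicates 1 and 2. The common gamma chain IL2RG, an alternative partner of IL4R, had 1, 39, 8 and 4 counts in the same order. Of the other IL-17 receptor chains, IL17RB, the IL-25 receptor, fell from 0.400 and 0.320 CPM to 0.120 and 0.0584 CPM (log2 fold change −1.85, SE 0.600, edgeR adjusted p = 0.0279), a call that leaving out any 1 library ended (adjusted p 0.0624 to 0.116). IL17RD rose from 6.54 and 6.04 CPM to 8.18 and 8.97 CPM (log2 fold change 0.45, edgeR adjusted p = 0.00691), and was not called without siControl replicate 2 (adjusted p = 0.0667) or siNSUN2 replicate 2 (0.055). IL13RA2, a decoy for IL-13, did not pass, at 0.188 and 0.428 CPM and 0.163 and 0.175 CPM. Of chains of other families, 2 more were above 1 CPM: CSF2RA rose (log2 fold change 0.69, edgeR adjusted p = 0.0233) and IL15RA narrowly missed the threshold (0.50, edgeR adjusted p = 0.0514). CSF2RA was not called without siControl replicate 1, siControl replicate 2 or siNSUN2 replicate 2 (edgeR adjusted p 0.0676 to 0.156). IL15RA and IL22RA1 were called with the replicate block, at an edgeR adjusted p of 0.0421 and 0.0397. With the GC and length offsets they were at 0.17 (edgeR adjusted p = 0.543) and 0.14 (edgeR adjusted p = 0.58).

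**Figure D4:**
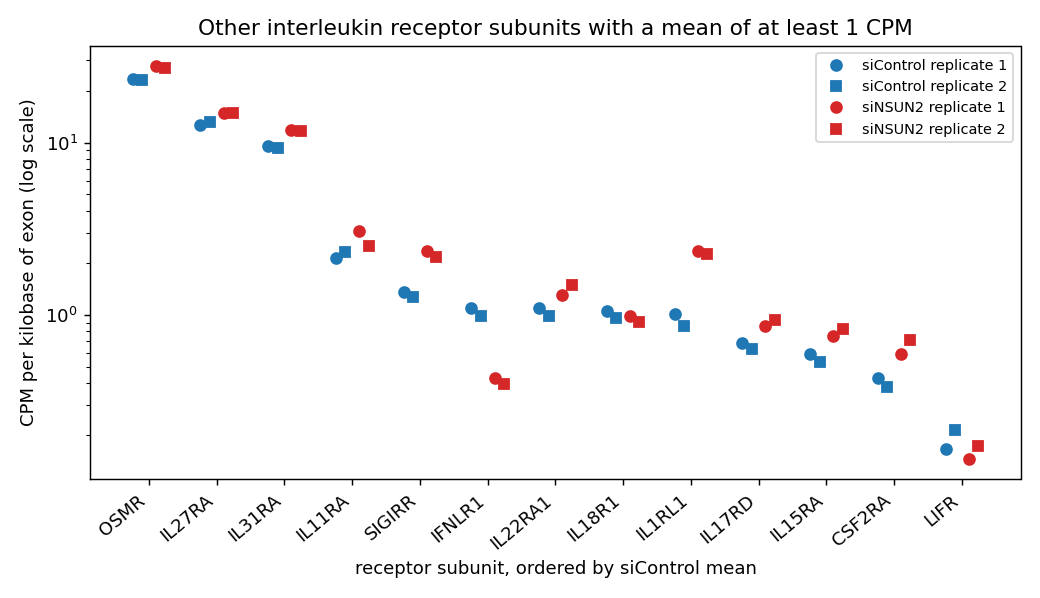
Level of the 13 other interleukin receptor chains with a mean of at least 1 CPM in each library, as CPM per kilobase of exon on a log axis. Most siNSUN2 points (red) lie above the siControl points (blue), as for IL1RL1, and IFNLR1 lies below.

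The genes around the receptors were taken from 9 lists, which together held 135 tested genes outside the members. Of these, 69 rose, 24 fell and 42 were not called (edgeR, adjusted over all genes), with a median log2 fold change of 0.40, beside 27.1% and 25.5% of all genes and a median of 0.026. With GC and length offsets 59 rose and 20 fell, with a median of 0.23, beside 20.5% and 24.3% of all genes and a median of −0.014. The lists share genes, and they were written with earlier results of these data known.

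Transcripts of ligands that act through IL6ST were found in the cells, and protein was not measured. Of 16 tested interleukins and related ligands, 9 rose, 1 fell and 6 stayed uncalled (median log2 fold change 0.53), and 14 of the 53 on the list had 0 counts in all libraries. IL6, the ligand of IL6R, rose from 8.87 and 8.60 CPM to 28.8 and 26.8 CPM (log2 fold change 1.68, SE 0.0684, edgeR adjusted p = 1.49e-07). LIF, at 147 and 138 CPM, rose to 211 and 196 CPM (log2 fold change 0.51, edgeR adjusted p = 3.58e-05), and IL11 rose from 4.07 and 3.99 CPM to 5.52 and 5.46 CPM (0.45). LIF was at 0.22 with the offsets, and IL11 was not called with them (edgeR adjusted p = 0.218) or without any 1 library (0.0585 to 0.105). CXCL8, the neutrophil chemokine also called IL-8, rose from 75.2 and 73.2 CPM to 154 and 148 CPM (log2 fold change 1.02, edgeR adjusted p = 1.75e-07). IL32 rose from 8.45 and 9.55 CPM to 34.0 and 31.0 CPM (log2 fold change 1.85, edgeR adjusted p = 2.60e-07). The fall was that of IL18 (log2 fold change −0.22), which was at 0.002 with the offsets. By contrast, IL4, IL17A, IL17F, IL1A and IL24 had 0 counts in every library, and IL13 and IL22 had at most 1 count in any.

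Genes known to be induced by these cytokines were mostly higher. Of 17 tested genes induced by IL-1 or IL-17, 15 rose, none fell and 2 stayed uncalled (median log2 fold change 1.19, and 1.32 with the offsets). IL6 and CXCL8 belong to this list too, and CXCL2, a chemokine, rose from 20.5 and 21.8 CPM to 53.1 and 53.7 CPM (log2 fold change 1.33, edgeR adjusted p = 1.26e-07). Of 11 tested genes induced through STAT3, the factor downstream of IL6ST, 7 rose, none fell and 4 stayed uncalled (median 0.98, and 0.50 with the offsets). JUNB, an AP-1 subunit, rose from 24.4 and 26.3 CPM to 74.9 and 75.1 CPM (log2 fold change 1.56, SE 0.0507, edgeR adjusted p = 6.05e-08), and by 1.01 with the offsets. CEBPB, a transcription factor of the acute phase response, rose by 1.19 and by 0.56 with the offsets. SOCS3, the inhibitor that binds gp130, rose from 33 and 33.5 CPM to 60.0 and 61.5 CPM (log2 fold change 0.87, edgeR adjusted p = 4.88e-07), and by 0.46 with the offsets. The acute phase genes SAA1 and FGB did not pass, with log2 fold changes of −0.37 and −0.44. Genes induced through STAT6, the factor downstream of IL4R, could hardly be measured: 4 of 13 were tested, 2 rose, and none was called with the offsets. The 2 were TGM2, a transglutaminase (0.27), and SOCS1 (0.60), which leaving out any 1 library kept from being called (edgeR adjusted p 0.0677 to 0.128).

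The signalling components moved in both directions. Of 23 tested JAK kinases, STATs and their inhibitors, 8 rose, 10 fell and 5 stayed uncalled (median log2 fold change −0.01). JAK1, the kinase bound to IL6ST and IL4R, did not pass, at 361 and 362 CPM and 394 and 375 CPM (edgeR adjusted p = 0.1). JAK1 was uncalled in most alternatives. It was called higher with the offsets (0.16), library totals alone or a mean of at least 1 CPM (edgeR adjusted p 0.0179 to 0.0424). The kinase TYK2, which IL10RB binds, rose by 0.57 (edgeR adjusted p = 3.00e-06) but was at 0.018 with the offsets (61.3% GC). PIAS4, an inhibitor of STAT factors, rose from 24.4 and 24.6 CPM to 50.3 and 48.6 CPM (log2 fold change 1.01, and 0.47 with the offsets). STAT2 rose by 0.66, and SOCS6, another inhibitor, had a log2 fold change of −0.68 (edgeR adjusted p = 2.48e-06). Of 17 tested adaptors and kinases of the IL-1 and IL-17 receptors, 7 rose, 5 fell and 5 stayed uncalled (median 0.12). With the offsets 4 rose and 6 fell (median −0.10). IRAK1, TRAF2 and TAB1 were among the rises but were called lower with the offsets. Their values there were −0.20 (edgeR adjusted p = 0.013), −0.27 (edgeR adjusted p = 0.00139) and −0.26 (edgeR adjusted p = 0.00649). IRAK2, a kinase recruited by MYD88, rose from 43.7 and 45.6 CPM to 92.0 and 89.1 CPM (log2 fold change 1.02, SE 0.0447, edgeR adjusted p = 2.21e-07). TRAF6, the ubiquitin ligase that both receptors need, fell from 17.5 and 18.9 CPM to 10.2 and 10.6 CPM (log2 fold change −0.81, SE 0.0745, edgeR adjusted p = 1.60e-05). TRAF4, a relative of TRAF6, rose by 0.86 (0.55 with the offsets), and TOLLIP, an inhibitor of IL-1 signalling, by 0.75 (0.37 with the offsets). The adaptors nearest the receptors fell: TRAF3IP2 from 11.2 and 11.1 CPM to 7.88 and 8.59 CPM (log2 fold change −0.44, edgeR adjusted p = 0.00262), and MYD88 from 21 and 20.5 CPM to 18.7 and 16.7 CPM (−0.22, edgeR adjusted p = 0.0261). MYD88 was not called without siNSUN2 replicate 2 (edgeR adjusted p = 0.169). TAB2, a partner of the kinase downstream of TRAF6, had a log2 fold change of −0.30, and −0.10 with the offsets (adjusted p = 0.148).

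Of 7 genes of receptor shedding, 2 rose, 1 fell and 4 did not pass. ADAM17, the protease that releases soluble IL6R, rose from 77.3 and 88.2 CPM to 119 and 123 CPM (log2 fold change 0.55, edgeR adjusted p = 4.88e-04). RHBDF1, which helps ADAM17 to mature, rose from 15.6 and 14.9 CPM to 41.2 and 42.9 CPM (log2 fold change 1.46, SE 0.0579, edgeR adjusted p = 1.29e-07), and by 0.87 with the offsets. ERAP1, an aminopeptidase also tied to shedding, fell slightly (log2 fold change −0.18) and was at 0.003 with the offsets. RHBDF2, a relative of RHBDF1, was not called (−0.12, edgeR adjusted p = 0.0810) but fell with the offsets (−0.74, adjusted p = 4.35e-07), where the list counted 3 rises and 1 fall. Receptors outside the interleukin family were also mostly higher: of 24 tested, 14 rose, 4 fell and 6 stayed uncalled (median 0.45, and 0.29 with the offsets). TNFRSF12A (log2 fold change 0.86), TNFRSF1A (0.93) and TNFRSF10D (0.93), receptors of the TNF family, rose, while the leptin receptor LEPR (−0.86) and the interferon receptor chain IFNAR1 (−0.44) fell. With the offsets TNFRSF12A was at 0.34, TNFRSF1A at 0.60 and IFNAR1 at −0.29.

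**Figure D5:**
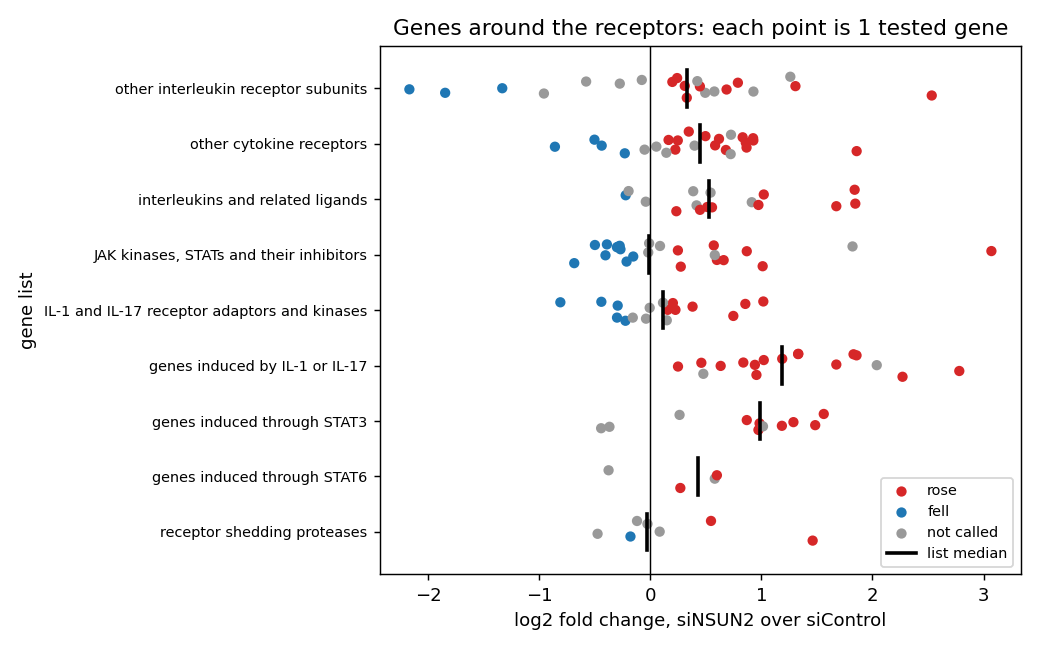
Log2 fold change of every tested gene of the 9 lists, siNSUN2 over siControl, coloured by its call in the edgeR fit, with a black bar at the list median. Genes induced by IL-1 or IL-17 have the highest list median, 1.19, whereas the JAK and STAT list is spread on both sides of 0.

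Library totals lay between 33633249 and 215936965 counts, and 1 count stood for 0.00463 to 0.0297 CPM. NSUN2, the targeted transcript, was at 281 and 284 CPM in siControl cells and at 29.6 and 30.1 CPM in siNSUN2 cells. Of the 16 epithelial and urothelial markers listed, 5 had a mean of at least 1 CPM. KRT8, KRT18 and KRT7 were abundant, while EPCAM, CDH1, KRT5, UPK2 and UPK3A were at or near 0. PPARG rose from 14.4 and 13.7 CPM to 23.5 and 22.5 CPM (log2 fold change 0.72, edgeR adjusted p = 1.36e-05). UPK1B fell from 3.86 and 4.18 CPM to 1.62 and 2.07 CPM (−1.13, edgeR adjusted p = 7.67e-04). Of the 7 tested markers 2 rose, 1 fell and 4 were not called, with KRT7 the other rise (0.29, edgeR adjusted p = 2.18e-04). With the offsets 1 of the 7 rose and 5 fell. Most of the listed markers were thus absent or scarce. Markers of other cells moved with the groups at low levels. The 6 endothelial genes summed to 0.635 and 0.404 CPM in siControl cells and 2.54 and 11.2 CPM in siNSUN2 cells, mostly from VWF. CDH5 (0.471 and 0.282 CPM, then 0.577 and 1.87 CPM), KDR and TEK were also higher in both siNSUN2 libraries, CLDN5 overlapped and PECAM1 was at 0. The 15 immune genes summed to 1.62 and 1.28 CPM and to 2.19 and 4.53 CPM. LYZ had 0, 7, 4 and 53 counts in siControl replicates 1 and 2 and siNSUN2 replicates 1 and 2, and PTPRC 0, 4, 4 and 20. ITGAM was at 0.941 and 0.621 CPM and at 1.15 and 1.37 CPM, CD8A overlapped and CD3D was at 0. The 8 fibroblast genes summed to 1020 and 1050 CPM and to 1770 and 1760 CPM, nearly all from VIM, which many cultured lines express and which rose (log2 fold change 0.77, edgeR adjusted p = 5.38e-07). COL1A1 rose from 0.847 and 1.64 CPM to 2.92 and 3.30 CPM (log2 fold change 1.28, edgeR adjusted p = 0.0118), while COL3A1 had 1 and 115 counts in siControl cells and 0 in siNSUN2 cells. The part of such cells in the results was not tested. Without siNSUN2 replicate 2, which had the highest endothelial and immune sums, the log2 fold change of IL6R was 2.05, that of IL17RC 1.20, of IL1R1 0.86, of IL4R 0.71 and of IL1RAP 0.49. In bulk RNA, fewer cells that express a receptor and less of its RNA in each cell cannot be told apart.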

How the data were processed

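The data are whole-number read counts that the authors deposited for each Ensembl gene ID in a single table. HISAT2, HTSeq and the build hg19 appear in the submitters' processing notes. Versions, annotation and strand setting were not given in the sources used here. The mRNA was enriched on oligo(dT) beads and made into stranded, paired-end libraries, per the labels' protocols. The strand setting of the counting is unknown, so reads of overlapping and antisense genes may be lost or misassigned. Every count column was matched to a sample by its title.

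The 4 libraries (2 siControl, 2 siNSUN2) were compared by edgeR's quasi-likelihood test (edgeR 4.0.16, R 4.3.3, robust estimation, TMM, filterByExpr, no replicate block), two-sided, adjusted by Benjamini-Hochberg over the 16889 genes tested, threshold 0.05. The script was tested on simulated data with planted changes. CPM used TMM-scaled totals, and SEs came from the F statistic. Symbols, exon length, GC content and 3′ UTRs came from a table of gene names and GENCODE 29 through gene IDs (GRCh38, so no gene coordinates are given). Length and GC content were known for 96.4% of tested genes. Loess offsets (span 0.3) on both were fitted per library.

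The members and lists were chosen with earlier results of these data known. Named genes were the members, NSUN2, other receptor chains with a mean of at least 1 CPM or known to pair with a member, and per list up to 3 called genes with the smallest p plus up to 2 of the less frequent direction. Others (LIF, IL11, JAK1, MYD88, TRAF3IP2, IRAK1, TRAF2, TAB1, SAA1, FGB, RHBDF2, markers, ligands and receptors at 0) were named after their values were seen. SOCS7 was not matched. The alternatives of 1 of the 135 pathway genes are not reported here. Alternatives included DESeq2 1.42.0 and limma-voom (limma 3.58.1).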

Additional observations from a re-analysis of the deposited data

How the results depend on the processing

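Across 16 alternatives, 147 of 159 member values moved by less than the spread between replicates, and 4 changed sign. With loess offsets on GC content and length, the log2 fold change turned to 0.091 for IL6ST, −0.121 for IL17RA and 0.104 for IL13RA1, and without siControl replicate 1 it turned to −0.043 for IL10RB. The median of the members (0.35) was 0.498 where a mean of at least 1 CPM was required, which leaves out IL20RB, and 0.279 (without siControl replicate 1) to 0.422 (without siControl replicate 2) where 1 library was left out. Among 134 pathway genes, 1930 of 2104 values kept direction and call, 88 lost the call, 43 gained one and 43 changed sign. With the offsets the sign changed for CHUK (0.071), CLCF1 (−0.015), CNTF (0.04), ERAP1 (0.003), FAS (0.187), ICAM1 (−0.038), IFNGR2 (−0.144), IL18 (0.002), IL18R1 (0.116), IL27RA (−0.13), IL7 (0.059), IRAK1 (−0.202), IRAK4 (0.156), SOCS1 (−0.112), SOCS5 (0.202), TAB1 (−0.264), TGM2 (−0.024), TRAF2 (−0.274), TRAF3 (−0.113) and TRAF5 (0.077). It also changed with DESeq2 for SAA2 (−0.269), with thinned libraries for IRAK4 (0.035), with library totals alone for IRAK4 (0.008) and SOCS5 (0.004), and with limma-voom for BACE2 (0.005), CNTF (0.094), IL36G (−0.002), IRAK4 (0.014) and TRAF5 (0.003). It changed too with no filter for IRAK4 (0.014), PIAS3 (0.0) and SOCS5 (0.009), and with the replicate block for SAA2 (−0.356). Leaving out 1 library gave values of both signs for CDH26 (−1.05 to 0.188), CNTF (−0.253 to 0.134), IFNGR2 (−0.087 to 0.121), IL36G (−0.352 to 1.055), IL3RA (−0.453 to 1.796), IRAK4 (−0.066 to 0.047), PRLR (−0.279 to 0.941), SOCS5 (−0.077 to 0.011) and TRAF5 (−0.126 to 0.046). The cause was not tested. The level of IL6ST over that of IL13RA1 was 2.37 by the length of the longest transcript, an alternative chosen after seeing the data. By that length the order of IL6R, IL1R1 and IL1RAP in siNSUN2 cells changed, as given above.

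Counts of all genes called were 4573 higher and 4307 lower. They were 3343 and 3963 with the offsets (16286 genes), which turned the balance, and 5027 and 4788 with a replicate block. Same-numbered libraries deviated together only weakly (correlation 0.156 over 16889 genes), and with 2 pairs this does not show that the numbers pair the samples. Leaving out 1 library gave 3720 to 4231 higher and 3750 to 4695 lower. DESeq2 gave 4004 and 4125, and edgeR with RLE scaling 4380 and 4482, so the balance turned without the offsets too. IL20RB, at 32 to 259 counts, was limited by depth.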

Other observations

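Several genes tied to the receptors were near the floor of detection. STAT6, the factor downstream of IL4R, had 3, 18, 16 and 15 counts in siControl replicates 1 and 2 and siNSUN2 replicates 1 and 2, and was not called (edgeR adjusted p = 0.0682). IKBKG, a subunit that NF-kB signalling needs, had 0 counts in every library. Both genes are widely expressed, so these counts may not give the level of their transcripts, and whether the counting of overlapping annotation bears on them was not tested. STAT5A had 2, 6, 24 and 11 counts in the same order (log2 fold change 3.07, edgeR adjusted p = 0.00896). IL12RB1, a chain of the receptors for IL-12 and IL-23, had 5, 19, 57 and 18 counts (log2 fold change 2.53, edgeR adjusted p = 0.00260), and IL1B, a ligand of IL1R1, had 2, 20, 26 and 10 counts (log2 fold change 1.84, edgeR adjusted p = 0.0415). The call of IL1B ended when any 1 library was left out (edgeR adjusted p 0.114 to 0.188), that of IL12RB1 without siNSUN2 replicate 1 (edgeR adjusted p = 0.0547), and that of STAT5A without siControl replicate 2 or either siNSUN2 library (0.0529 to 0.118). EBI3, a subunit of IL-27, rose from 8.17 and 8.06 CPM to 15.8 and 16.1 CPM (log2 fold change 0.97, SE 0.0752, edgeR adjusted p = 5.20e-06). These genes were chosen after their values were seen.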
